A study of Mus musculus with 26 samples.

Results

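Salivary amylase 1 (Amy1), pancreatic lipase-related protein 1 (Pnliprp1) and chymotrypsinogen B1 (Ctrb1) are digestive-enzyme genes of the kind that acinar cells of the pancreas secrete, and their messenger RNA was followed here across 5 exocrine glands of BALB/c mice. The 3 genes were chosen with earlier results of these data known. They were taken by name, through the gene symbol or the Entrez identifier of the array's annotation, out of 8841 named genes. Each has 1 probe, and all 3 probes passed the filter on dim probes and were measured on all 26 arrays. The arrays carried RNA from 3 salivary glands (submandibular, sublingual and parotid) and from the lacrimal and meibomian glands of the eye, in males and in females, and each array held a pool of 10 glands from 5 animals. The submandibular, lacrimal and meibomian glands had 3 pools of each sex, named A, B and C, and the sublingual and parotid glands had 2 pools of each sex, A and B. All groups are of 1 strain, with no treatment or genetic change named in the labels, and the age is not given in the sources used here.

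Exocrine acinar cells make secretory proteins in bulk, store them in granules and release them through a duct. Amylase cuts starch and is secreted by salivary glands and by the pancreas, from separate genes of a tight cluster in the mouse. The pancreatic lipase family splits dietary fat, and Pnliprp1 is a close relative of pancreatic lipase that has little lipase activity in the assays used for that enzyme. Chymotrypsinogen B1 is the inactive precursor of chymotrypsin, a serine protease that trypsin activates in the gut. The submandibular and lacrimal glands of mice are known to differ between the sexes, and androgens are known to enlarge the granular ducts of the submandibular gland.

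In GRCm38.p6, Amy1 lies at chr3:113555952-113577750 on the minus strand, Pnliprp1 at chr19:58728887-58744169 on the plus strand and Ctrb1 at chr8:111686510-111691010 on the minus strand. The 250 bases before each annotated start are given because the 3 genes differ in their pattern over glands and sexes while sharing a pancreatic class of product. They were taken from RefSeq (GRCm38.p6) and run 5′ to 3′ on the gene's strand. Amy1 has 2 annotated starts, the upstream one known for the parotid gland and the downstream one for the liver, and whether the single probe separates their transcripts was not tested. Capitals mark a TATAAA box before the downstream Amy1 start, and in Ctrb1 a CAGCTG E-box (CANNTG) followed by TTTCCC. That pairing is the type of site that the pancreatic PTF1 complex is known to bind.

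Amy1 upstream 1: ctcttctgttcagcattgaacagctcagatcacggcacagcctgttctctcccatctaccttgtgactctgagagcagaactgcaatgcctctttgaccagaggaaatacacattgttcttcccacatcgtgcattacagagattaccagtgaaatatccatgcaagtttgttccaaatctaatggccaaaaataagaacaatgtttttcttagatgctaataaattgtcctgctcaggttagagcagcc
Amy1 upstream 2: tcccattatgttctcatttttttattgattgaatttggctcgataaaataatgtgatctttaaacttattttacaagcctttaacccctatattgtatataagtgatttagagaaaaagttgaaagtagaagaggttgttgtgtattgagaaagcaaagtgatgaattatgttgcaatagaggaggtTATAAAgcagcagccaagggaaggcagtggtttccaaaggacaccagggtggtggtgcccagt
Pnliprp1 upstream: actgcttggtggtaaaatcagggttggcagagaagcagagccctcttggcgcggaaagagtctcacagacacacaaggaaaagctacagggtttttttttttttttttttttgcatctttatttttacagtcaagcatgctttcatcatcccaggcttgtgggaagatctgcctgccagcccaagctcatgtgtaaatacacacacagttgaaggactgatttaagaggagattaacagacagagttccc
Ctrb1 upstream: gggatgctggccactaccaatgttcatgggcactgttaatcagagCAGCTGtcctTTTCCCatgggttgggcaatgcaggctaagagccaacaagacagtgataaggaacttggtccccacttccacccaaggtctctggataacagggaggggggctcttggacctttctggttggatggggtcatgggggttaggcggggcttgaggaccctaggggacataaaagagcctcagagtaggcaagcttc

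The upstream Amy1 region is chr3:113577751-113578000, the downstream one chr3:113574763-113575012, that of Pnliprp1 chr19:58728637-58728886 and that of Ctrb1 chr8:111691011-111691260. TATAAA, searched on the gene's strand only, was found at position -63 from the downstream Amy1 start and in none of the other 3 regions. On the same strand, 7.59% of 32851 upstream regions of the same length hold it. The palindromic pattern CANNTG occurred in the Pnliprp1 region at -63 and -45 and in the Ctrb1 region at -205, and 66.2% of all regions hold it. TTTCCC was found in Ctrb1 alone, at -195, and in 21.9% of all regions. An E-box followed within 20 bases by TTTCCC, a combination looked for after the sequences had been seen, was present in Ctrb1 and in 2.03% of all regions. AGAACA, a half-site of steroid receptors searched on both strands, occurred 3 times before the upstream Amy1 start, at -208, -136 and -55, and once before the downstream one, at -242. It was found in neither the Pnliprp1 nor the Ctrb1 window, and 16.1% of all regions hold it.

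The deposited table gives 1 intensity per probe and array in arbitrary units, so a probe can be compared between samples but not with another probe. Array medians lay between 0.928 and 0.955, and the highest intensity of an array between 103 and 867.5. The values themselves split the arrays into a set 1 of 10 and a set 2 of 16, and set 1 holds 1 pool letter of each gland in both sexes. The basis of this split was not tested, and because it crosses sex within every gland, each sex difference could be given within the sets. Summed intensities of the lacrimal acinar markers Sval2 and Ltf were 410 to 703 in male and 550 to 670 in female lacrimal pools, against at most 9.95 in any pool of the other 4 glands. Of the 7 islet genes listed to look for pancreatic tissue, 3 had probes, and Ppy, Sst and Iapp reached no more than 1.04, 0.356 and 1.52 on any array. In whole-gland RNA, fewer cells of a type and less RNA per cell cannot be told apart.

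Pools that stood apart from their group bear on 2 of the 3 genes. Female submandibular pool C had 84.6 units of Pnliprp1, against 0.365 in pool A and 0.571 in pool B of the same sex and gland. Among 20 probes chosen, after the values had been seen, for being higher in male sublingual than in male submandibular pools, that pool was the highest female submandibular pool for 19. Its median for them was 23.8% of the female sublingual level, against 3.81% in pool A and 3.26% in pool B. In the lacrimal gland, Amy1 was high in male pool A and female pool B, and Pnliprp1 was higher in male pool B than in the other male pools. The main results that rest on these pools are given with and without them.

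Amy1 RNA was near the top of the array in all 3 salivary glands and far lower in the meibomian gland, the sebaceous gland of the eyelid. In the parotid gland, the classic source of salivary amylase, Amy1 read 150 and 492 units in male pools and 182 and 458 in female pools. Submandibular levels were 318, 167 and 159 in males and 273, 199 and 256 in females. Sublingual levels were 136 and 327 in males and 140 and 297 in females. The ranges of the 3 salivary glands overlapped. Their geometric means of 280 (parotid), 221 (submandibular) and 208 (sublingual) did not pass the test against each other, with log2 differences of -0.34 ± 0.75 for submandibular minus parotid (SE, limma, adjusted p = 0.789) and -0.43 ± 0.82 for sublingual minus parotid (adjusted p = 0.785). The interval of the first ran from -1.89 to 1.21, so differences of either sign are within it.

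These salivary Amy1 readings were 51.2% to 95.3% of the highest intensity on their own array, and no saturation flag was used here, so whether they are capped was not tested. In set 1 the salivary pools read 136 to 199 units and in set 2 159 to 492, and the highest intensity of these arrays was 158 to 389 in set 1 and 280.0 to 625 in set 2. Within set 2 the parotid pools (492 in the male and 458 in the female) lay above all submandibular and sublingual pools, whereas within set 1 parotid and submandibular pools overlapped.

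Meibomian pools had 0.640, 0.511 and 0.429 units of Amy1 in males and 0.355, 0.515 and 0.572 in females. None of them came near any pool of the other glands. The meibomian gland was below the mean of the other 4 by a log2 difference of -8.33 ± 0.54 (limma, adjusted p = 3.58e-11), a 321-fold lower geometric mean. Of all probes tested in that comparison, 37.9% passed, and all 3 enzyme genes were lower there.

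Lacrimal Amy1 varied widely among the pools of each sex. Males had 229, 8.26 and 6.36 units in pools A, B and C, and females 57.6, 362 and 57.2. Male pool A lay above female pools A and C, so the sexes overlapped. The male minus female difference was -2.21 ± 0.94 on the log2 scale (limma, adjusted p = 0.253, exact permutation p = 0.300, with 3 pools each unable to go below 0.10). Without male pool A it was -3.87 (adjusted p = 0.00102), and without both male pool A and female pool B, an omission chosen after the values had been seen, -2.99 (adjusted p = 0.00275). Within set 1, which has 1 pool of each sex, the difference was -5.46, and within set 2 it was -0.59 (adjusted p = 0.902).

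The lacrimal geometric mean of 49.3 was lower than in each salivary gland, by 2.17 ± 0.67 against the submandibular gland (submandibular minus lacrimal, adjusted p = 0.0147), 2.07 ± 0.75 against the sublingual (adjusted p = 0.0334) and 2.51 ± 0.75 against the parotid (adjusted p = 0.0105). Without male pool A and female pool B of the lacrimal gland the differences were 3.44, 3.35 and 3.78, in the same order of glands. The sublingual comparison lost its call without male lacrimal pool B or C, female lacrimal pool A or C, or sublingual pool B of either sex (adjusted p = 0.0727 to 0.122). The submandibular one lost it without male lacrimal pool C (adjusted p = 0.0501), and the parotid one without parotid pool B of the male (adjusted p = 0.0590) or female (adjusted p = 0.0520). Within set 2 the lacrimal gland passed against neither the submandibular (2.38, adjusted p = 0.0549) nor the sublingual gland (2.74, adjusted p = 0.0741). Chia1, an acidic chitinase, followed Amy1 over the lacrimal pools with 92.4, 4.94 and 3.32 units in males and 27.0, 285 and 37.5 in females. The glandular kallikrein Klk1b5, a duct marker of salivary glands, had 14.2, 1.16 and 0.350 units in males and 5.74, 88.9 and 2.42 in females. Chia1 and Klk1b5 were highest in the same male and the same female pool as Amy1. Egf, another duct gene, was instead highest in pool C of both sexes. It had 1.86, 1.81 and 6.08 units in males and 3.02, 4.67 and 6.83 in females. Klk1b24, also a duct gene, had no value in pool B of either sex. A list of 20 probes was chosen, after the values had been seen, as higher in every salivary gland than in the meibomian gland. No limit was set on their lacrimal level. Over them, male pool A was the highest male lacrimal pool for 12, pool B for 0 and pool C for 8. Among females, pool B was the highest for 8 and pools A and C for 6 each. These 20 probes include Chia1 and Klk1b5 themselves, and also Sval2, Lpo and Car6, which are genes of lacrimal or serous acini. The part of salivary tissue in these Amy1 values was not tested.

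**Figure D1:**
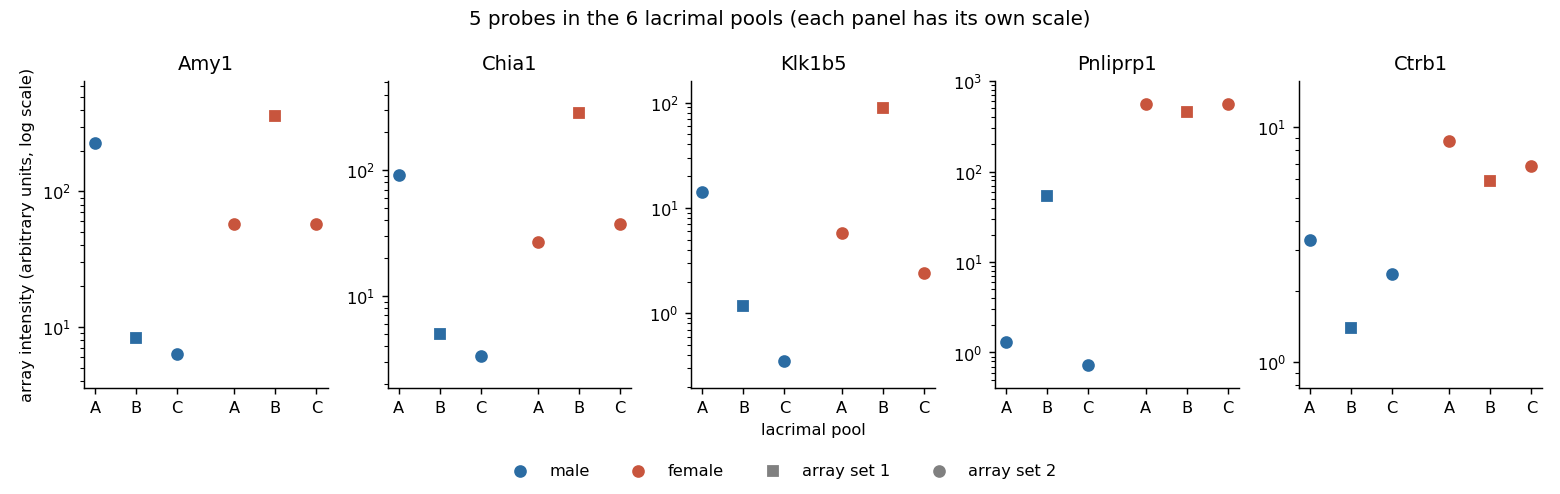
Array intensity (arbitrary units, log scale, a separate scale in each panel) of Amy1, Chia1, Klk1b5, Pnliprp1 and Ctrb1 in each lacrimal pool, males left and females right, with squares for array set 1 and circles for set 2. Amy1, Chia1 and Klk1b5 peak in male pool A and female pool B, whereas Pnliprp1 and Ctrb1 are lower in every male pool than in every female pool.

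Pnliprp1 was bright in the sublingual gland of both sexes and in the female lacrimal gland, intermediate or low in the submandibular and male lacrimal glands, and dim in the parotid and meibomian glands. Sublingual pools had 119 and 315 units in males and 123 and 215 in females. Parotid pools had 0.165 and 0.333 in males and 0.123 and 0.230 in females, and meibomian pools stayed between 0.194 and 0.245. Every parotid and meibomian pool was below its array's 30th percentile, so only a bound can be given. The sublingual level was at least 510-fold that of the parotid gland (limma, adjusted p = 7.61e-06) and at least 607-fold that of the meibomian gland (adjusted p = 5.60e-07). The sublingual gland was thus bright and the parotid gland dim for Pnliprp1, although Amy1 was high in both.

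Male lacrimal pools read 1.32, 53.8 and 0.725 units of Pnliprp1, while female lacrimal pools read 558, 451 and 558. No male pool reached a female one, and 2 of the male pools were near the middle of their array, at its 56.3 and 41.8 percentiles. The geometric mean was 3.72 in males and 520 in females, a log2 difference of -7.13 ± 1.46 (SE, limma, adjusted p = 0.00391) with a 95% interval of -10.16 to -4.09. Without male pool B the difference was -9.05 (adjusted p = 0.000181), without male pool A -6.38 (adjusted p = 0.0243) and without male pool C -5.95 (adjusted p = 0.0270). The exact permutation p was 0.10, the smallest that 3 pools against 3 allow.

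Within set 1 the Pnliprp1 difference in the lacrimal gland was -3.07, from 1 pool of each sex, and within set 2 it was -9.15 (adjusted p = 0.0241). Among 20 other probes chosen as higher in female than in male lacrimal pools with male pool B left out, after the values had been seen, male pool B was the highest male pool for 9, pool A for 6 and pool C for 5. Male pools A and C were selected to be low for these probes and pool B was not. The count therefore favours pool B by selection, and nothing is drawn from it. The call was lost when the lacrimal arrays were fitted on their own (adjusted p = 0.0554, or 0.103 with the pool letter as a block) and when male pool A and female pool B were left out (-6.48, adjusted p = 0.0516).

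Submandibular Pnliprp1 was low apart from 1 pool. Males had 2.95, 3.87 and 1.98 units, and females 0.365, 0.571 and 84.6. The female pools lay on both sides of the male ones, and the male minus female difference was 0.12 ± 1.46 (adjusted p = 0.998). Without female pool C it was 2.63 (adjusted p = 0.321), and array set 1 alone gave 2.76. Male pools had 1.52%, 2.0% and 1.02% of the mean male sublingual level, and female pools 0.225%, 0.351% and 52.0% of the female one. The submandibular gland did not pass against the mean of the other 4 glands (-0.66 ± 0.83, adjusted p = 0.600), whereas without female pool C it did (-1.91, adjusted p = 0.0216). The part of sublingual tissue in pool C was not tested beyond the 20 probes above.

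**Figure D2:**
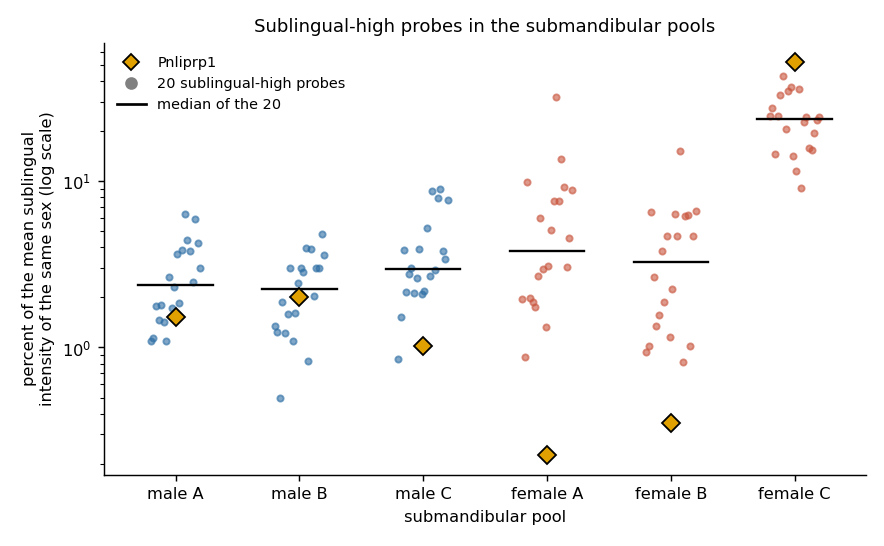
Pnliprp1 (diamonds) and 20 probes high in the sublingual gland (circles, median as a line) in each submandibular pool, as percent of the mean sublingual intensity of the same sex on a log scale. Female pool C stands above the other pools for Pnliprp1, at 52.0%, and for the 20 probes, with a median of 23.8%.

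By geometric mean over both sexes the order of Pnliprp1 was sublingual (177), lacrimal (44.0), submandibular (2.71), meibomian (0.216) and parotid (0.199). In males the means were 193 (sublingual), 3.72 (lacrimal) and 2.83 (submandibular), and in females 162, 520 and 2.60. The order of the sublingual and lacrimal glands was thus reversed in females. In males the lacrimal pools (0.725 to 53.8) overlapped the submandibular ones (1.98 to 3.87), so the step between those glands lay mainly in females. The sublingual and lacrimal means, the lacrimal one over 2 sexes that did not overlap, did not pass against each other (2.01 ± 1.15, adjusted p = 0.179), but did without female submandibular pool C (adjusted p = 0.0426) or without male lacrimal pool B (2.97, adjusted p = 0.0230). Within set 1 the order was the other way round (-0.37, with no test), and within set 2 it was 3.47 (adjusted p = 0.120). Averaged over the sexes, submandibular minus lacrimal was -4.02 ± 1.03 (adjusted p = 0.00435). It was -5.28 without female submandibular pool C, -3.31 without female submandibular pool A and -3.06 without male lacrimal pool B, each still called. Within set 1 it was -6.71 with no test, and within set 2 -2.67 (adjusted p = 0.131). Submandibular over parotid was at least 7.80-fold (3.77 as measured on the log2 scale, adjusted p = 0.0186). Without female submandibular pool C the bound was at least 3.27-fold (2.52 as measured, adjusted p = 0.0245). The call was lost without parotid pool A of either sex (adjusted p = 0.0697 without the female and 0.0714 without the male array), within set 2 (3.73, adjusted p = 0.136) and with a pseudocount of 1 (1.95, adjusted p = 0.146). Meibomian and parotid pools were both dim and are not ordered. The test of each gland against the mean of the other 4 passed for the sublingual (6.88 ± 0.97, adjusted p = 2.32e-05) and lacrimal glands (4.37 ± 0.83, adjusted p = 0.000218), with the dim pools at their measured values. The lacrimal value was 3.41 without male lacrimal pool B (adjusted p = 0.000958), 3.09 within set 2 (adjusted p = 0.0372) and 6.66 within set 1, with no test.

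Ctrb1 was read at modest levels and was lower in males without overlap in both the submandibular and the lacrimal gland. Submandibular pools had 2.95, 1.48 and 2.65 units in males and 20.8, 13.1 and 10.4 in females. Every male pool was below every female pool, with a log2 difference of -2.65 ± 0.35 (limma, adjusted p = 7.81e-05, 95% interval -3.38 to -1.91), a 6.27-fold lower geometric mean in males. Leaving out any 1 array kept the difference between -2.87 and -2.34. Within set 2 it was -2.40 (adjusted p = 0.0129), and within set 1, with 1 pool of each sex, -3.15.

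Lacrimal pools had 3.32, 1.39 and 2.37 units of Ctrb1 in males and 8.74, 5.90 and 6.86 in females. Again no male pool reached a female one, and the difference was -1.67 ± 0.35 (limma, adjusted p = 0.00493, 95% interval -2.41 to -0.94). It remained called in the fit with any 1 array left out but not within set 2 (-1.46, adjusted p = 0.0685), with array weights (-1.57, adjusted p = 0.135) or from the lacrimal arrays alone (adjusted p = 0.147, or 0.0562 with the pool letter as a block). Within set 1 it was -2.09. The exact permutation p was 0.10 for both glands, again the smallest possible.

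In the other glands Ctrb1 was not called for sex. Sublingual pools had 2.82 and 5.12 units in males and 6.43 and 4.45 in females (-0.49 ± 0.43, adjusted p = 1.0). Parotid pools had 1.24 and 1.67 in males and 1.72 and 1.31 in females (-0.06 ± 0.43), and meibomian pools 0.472, 0.386 and 0.660 in males and 0.703, 0.559 and 0.598 in females (-0.32 ± 0.35). The intervals of these 3 differences, from -1.39 to 0.41, -0.96 to 0.84 and -1.06 to 0.41, leave room for smaller effects. The F test of whether the sex difference varied with the gland passed for Ctrb1 (F = 8.63, limma, adjusted p = 0.0164) but not for Pnliprp1 (F = 4.93, adjusted p = 0.146) or Amy1 (F = 1.04, adjusted p = 1.0), against 2.66% of all probes. Ctrb1 lost this call without female submandibular pool A (adjusted p = 0.0540) or male submandibular pool B (adjusted p = 0.0503). Pnliprp1 gained it without female submandibular pool C (F = 14.2, adjusted p = 0.00186) or male lacrimal pool B (F = 9.54, adjusted p = 0.0109).

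**Figure D3:**
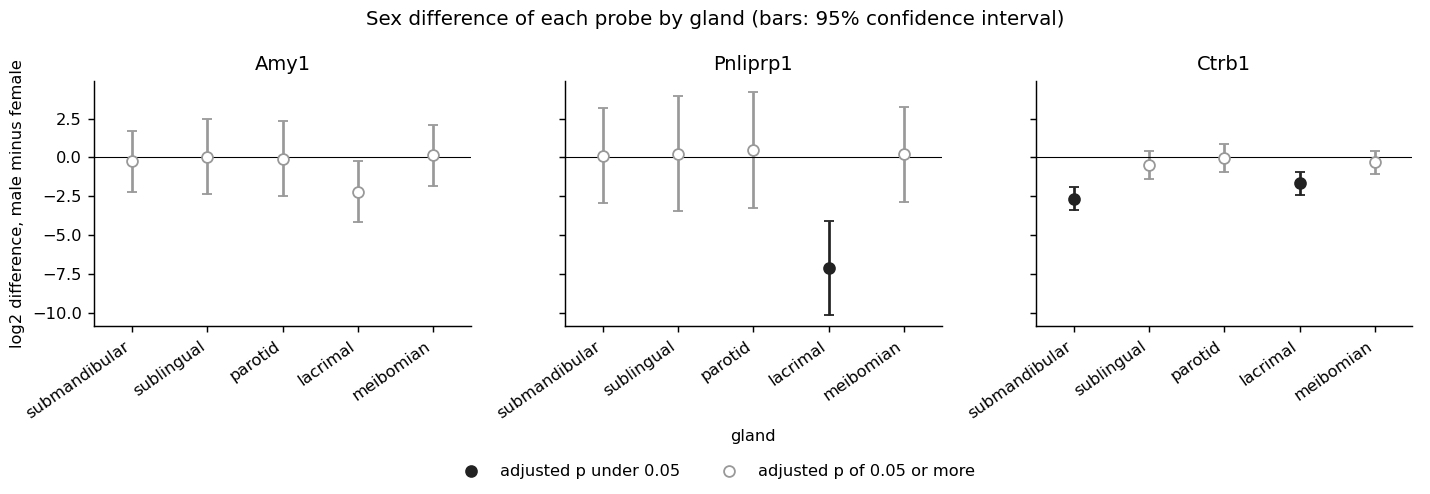
Male minus female log2 difference of Amy1, Pnliprp1 and Ctrb1 in each gland with its 95% confidence interval from the limma fit over 26 arrays, filled where the adjusted p is under 0.05. The 3 filled points are all below 0: Pnliprp1 in the lacrimal gland and Ctrb1 in the submandibular and lacrimal glands.

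Across the sex comparisons, 1 of 3 genes was called in the submandibular gland, where 2.61% of all probes were called, and 2 of 3 in the lacrimal gland, where 5.43% were. None was called in the sublingual (0.208% of all probes), parotid (0.0244%) or meibomian gland (0.0366%). With the pool letter as a block the calls over all probes numbered 592 against 214 in the submandibular and 1107 against 445 in the lacrimal gland, and the calls of the 3 genes stayed as they were. All 3 called differences were lower in males, a direction shared by 0.671% of all probes in the submandibular and 2.53% in the lacrimal gland. Because the 3 genes were chosen with earlier results of these data known, their counts are no test against the shares of all probes.

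Some genes listed as markers of other cells also differed between the sexes in these glands. In submandibular pools the duct genes Egf and Klk1b24, 2 of 3 in their list, were higher in males, and the list's sum was 625 to 738 units in males and 369 to 488 in females. Skeletal muscle genes Acta1, Pvalb and Tnnt3, 3 of 4, were higher in males, with sums of 8.10 to 11.7 units in males and 0.969 to 1.42 in females. Scd1, 1 of 2 meibocyte genes, and Sval2, 1 of 2 lacrimal acinar genes, were lower in males. Meibocyte list sums were 8.52 to 9.40 units in males and 32.0 to 52.1 in females. Elovl4, the other meibocyte gene, was dim there, at 0.223 to 0.273 units in males and 0.160 to 0.214 in females. The meibocyte sums are thus nearly all Scd1, and meibocytes cannot be read from them. Lacrimal acinar list sums were 0.589 to 0.910 units in males and 1.91 to 3.72 in females. Mucous acini could not be read, since Tff2, the only probe of their list, did not pass the filter. It reached at most 0.508 on any array and 0.0428 to 0.168 in sublingual pools. Of the serous acinar genes Lpo, Aqp5, Car6 and Bhlha15 none was called, and their sum was 417 to 484 units in males and 541 to 680 in females. In lacrimal pools 1 of 3 adipocyte genes, Adipoq, was lower in males, with list sums of 4.15 to 14.2 units in males and 10.7 to 26 in females. Scd1 was higher in males, with sums of its list of 6.50 to 9.38 units in males and 3.0 to 3.38 in females. Elovl4 was again low, at 0.188 to 0.446 units in males and 0.367 to 0.417 in females. Serous acinar genes there summed to 727 to 1063 in males and 950 to 1079 in females, again with none of 4 called. The part of these cells in the Ctrb1 and Pnliprp1 differences was not tested.

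Over glands, Ctrb1 had geometric means of 5.66 (submandibular), 4.51 (sublingual), 3.96 (lacrimal), 1.47 (parotid) and 0.552 (meibomian). These means pool the sexes, which did not overlap in the submandibular and lacrimal glands. In males the means were 2.26 (submandibular), 3.8 (sublingual), 2.22 (lacrimal) and 1.44 (parotid), and the male submandibular and lacrimal ranges overlapped the parotid pools. In females they were 14.2, 5.35, 7.07 and 1.5 in the same order of glands. With the sexes pooled, the first 3 did not pass against each other (log2 differences of 0.33 ± 0.28, 0.52 ± 0.25 and 0.19 ± 0.28, adjusted p = 0.501, 0.113 and 0.627). Each of them was above the parotid gland, by 1.95 ± 0.28 for the submandibular gland (adjusted p = 1.48e-05), 1.62 ± 0.31 for the sublingual (adjusted p = 0.000558) and, as parotid minus lacrimal, -1.43 ± 0.28 (adjusted p = 0.000322), or -0.97 within set 1, with no test. The parotid gland was in turn above the meibomian by 1.41 ± 0.28 (adjusted p = 0.000210), but by 0.67 with a pseudocount of 1 (adjusted p = 0.00756), under the size needed for a call. Among the salivary glands, the parotid was thus the one with less Ctrb1 and dim Pnliprp1, while its Amy1 did not pass against the others.

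**Figure D4:**
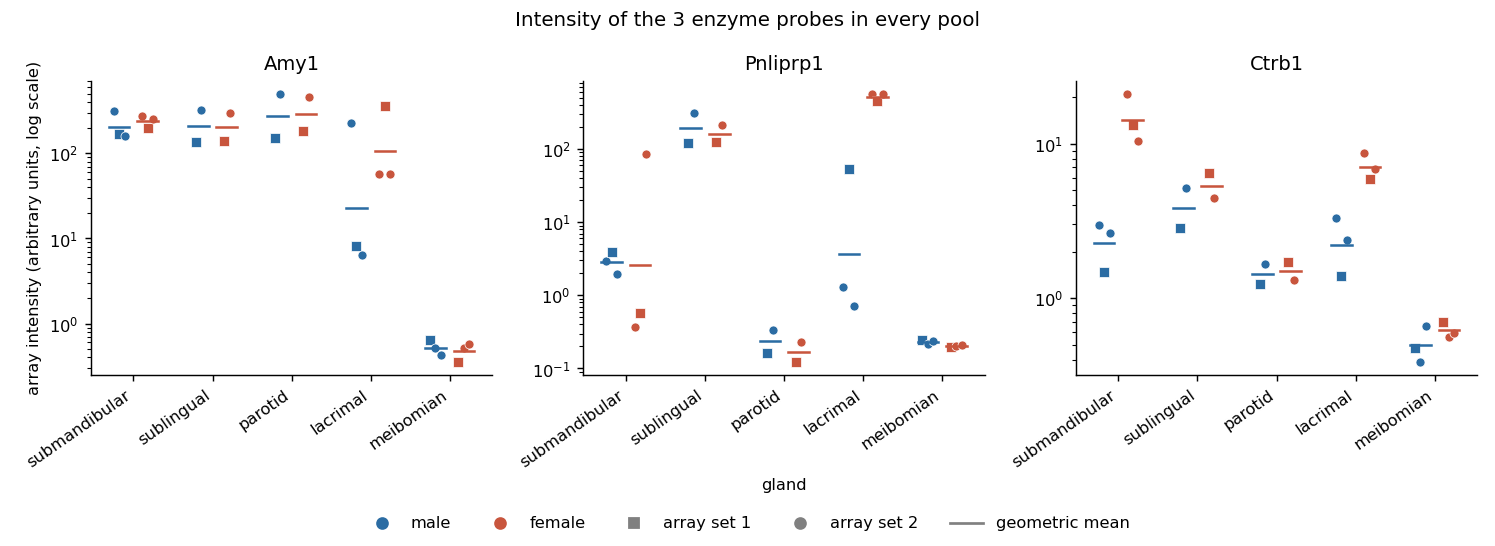
Array intensity (arbitrary units, log scale) of Amy1, Pnliprp1 and Ctrb1 in every pool of each gland, males left of females, squares for array set 1 and circles for set 2, lines at the geometric mean of a group. Amy1 is high in all salivary pools, Pnliprp1 in the sublingual and female lacrimal pools, and Ctrb1 in the female submandibular pools.

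Against the mean of the other 4 glands, Amy1 and Ctrb1 were called higher in the submandibular gland, where 12.3% of all probes were called, and all 3 genes in the sublingual gland (11.2%). The submandibular call of Ctrb1 averages males and females that did not overlap. In the parotid gland (17.1%) Amy1 was higher and Pnliprp1 lower, and in the lacrimal gland (20.2%) Pnliprp1 alone was called, higher. That lacrimal call likewise averages males and females that did not overlap. Outside the meibomian gland, the mean of the other 4 includes meibomian pools at 0.355 to 0.640 units of Amy1 and 0.386 to 0.703 of Ctrb1. No salivary gland passed against another for Amy1. Lacrimal Amy1 was level with that mean (-0.03 ± 0.54) although it was lower than in each salivary gland. Calls in these comparisons needed a log2 difference of at least 1, which Ctrb1 missed in the parotid (-0.90 ± 0.24, adjusted p = 0.00515) and lacrimal glands (0.89 ± 0.20, adjusted p = 0.00106). It passed that size without male parotid pool B (-1.0) and without male lacrimal pool B (1.06). In the sublingual gland its call (1.13 ± 0.24, adjusted p = 0.00133) was lost to that size without female sublingual pool A (0.99) or male sublingual pool B (0.91). Between pairs of glands the share of all probes called was 10.4% for submandibular against sublingual, 16.8% for submandibular against parotid, 13.8% for sublingual against parotid and 40.8% for lacrimal against meibomian. It was 19.4%, 23.1% and 26.1% for the submandibular, sublingual and parotid glands against the lacrimal, and 36.6%, 34.8% and 40.1% for the same glands against the meibomian gland. Of the 30 tests these 10 pairs give for the 3 genes, 22 were called.

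Other genes of the pancreatic secretory programme differed from gland to gland. Of 37 further pancreatic enzymes and cofactors listed, 17 had a probe and 11 passed the filter. Amy2a5, a pancreatic amylase, was among the 6 that did not, and it reached no more than 0.504 units on any array. Amy1 and Amy2a5 are close paralogs, and cross-hybridisation between their probes was not tested.

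The lacrimal gland held the most of them, 4 of 11 higher and 1 lower, where 20.2% of all probes were called in either direction (median log2 difference 0.73, against 0.12 over all probes). Cpb1, carboxypeptidase B, averaged 3.83 units there, with 1.58 to 8.27 in male and 1.51 to 7.07 in female pools, at least 11.8-fold the mean of the other glands (limma, adjusted p = 5.37e-10). Dmbt1, a mucosal glycoprotein of pancreatic granules and other epithelia, averaged 16.4 (3.49 ± 0.16, adjusted p = 5.83e-13). Cel, the bile salt-dependent lipase, and Sycn, a granule membrane protein, were higher by smaller steps (at least 2.21-fold and 1.13 ± 0.25 on the log2 scale, adjusted p = 6.72e-05 and 0.00112). Lacrimal Cel was low, at 0.712, 0.570 and 0.740 units in male pools A, B and C and 0.319, 1.99 and 0.452 in female ones. Female pools A and C lay at the 24.8 and 24.1 percentiles of their arrays, below the limit for dim probes. Meibomian pools of Sycn (2.48 to 3.18 units) lay within its lacrimal range (2.42 to 7.36). With the sexes averaged, Pnliprp1 was thus 1 of several pancreatic-type genes called higher in the lacrimal gland. Its call averages female pools at 451 to 558 units and male pools at 0.725 to 53.8, whereas the sexes overlapped for Cpb1.

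Cela1, an elastase, was the gene called higher in the parotid gland, with 5.17 units (3.03 ± 0.26, adjusted p = 1.35e-08), and it was lower in the lacrimal (-1.51 ± 0.23) and submandibular glands (-1.47 ± 0.23). Gp2, the main membrane glycoprotein of zymogen granules, was instead high in the meibomian gland at 20.6 units, at least 54.8-fold the mean of the others (adjusted p = 7.61e-13). Clps, colipase, the cofactor of pancreatic lipase, had its lowest mean there, 0.955 units against 1.64 to 3.77 in the other glands (-1.49 ± 0.25, adjusted p = 2.24e-05). In all, 1 of 11 was higher and 4 lower in the meibomian gland (37.9% of all probes called), 1 higher and 1 lower in the parotid (17.1%), 0 higher and 4 lower in the submandibular (12.3%) and 0 higher and 2 lower in the sublingual gland (11.2%). The meibomian, parotid and sublingual counts lie near those shares. Of the genes called lower, Cpb1 was dim in every gland but the lacrimal, and Gp2 was dim in the submandibular and parotid glands. Their lower calls in the submandibular, sublingual, parotid and meibomian glands thus set dim pools against a mean that holds other dim pools. Between the sexes only Dmbt1 was called, lower in male lacrimal pools (-1.43 ± 0.28, adjusted p = 0.00291).

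**Figure D5:**
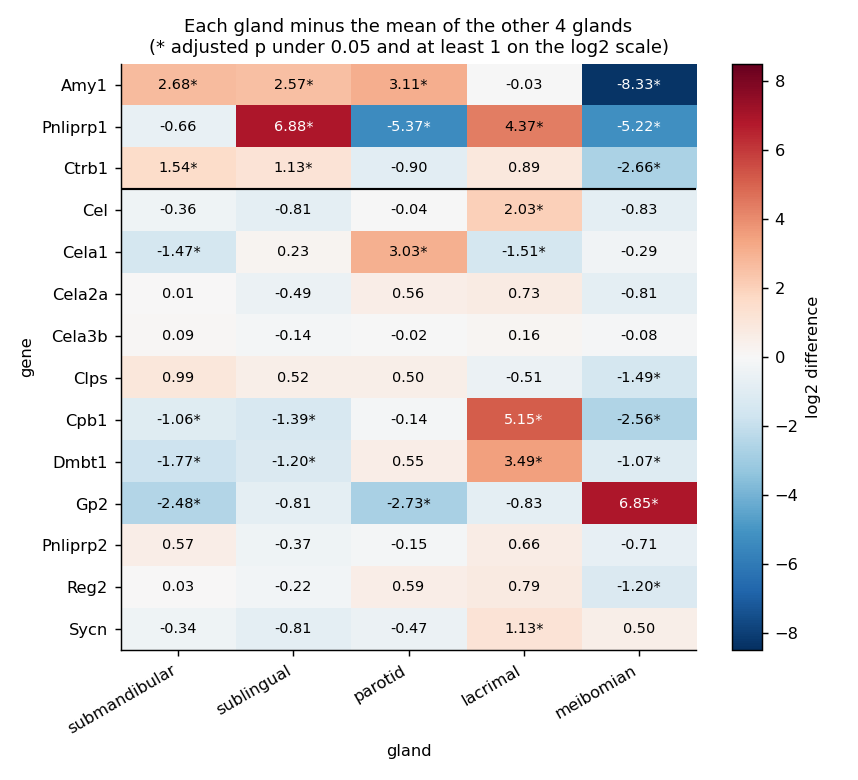
Log2 difference of each gland from the mean of the other 4 for the 3 enzyme genes (above the line) and 11 other pancreatic genes, red for higher and blue for lower, with an asterisk where the adjusted p is under 0.05 and the difference at least 1. Cpb1 (5.15) and Dmbt1 (3.49) share the lacrimal column with Pnliprp1 (4.37), Cela1 (3.03) the parotid column with Amy1 (3.11), and Gp2 (6.85) stands alone in the meibomian column. Each value averages the sexes.

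Regulators of acinar cells were read on 15 probes of 19 genes listed, and 12 passed the filter. Rbpjl, the DNA-binding partner in the PTF1 complex of pancreatic acini, averaged 5.23 units in the submandibular gland and 1.47 to 2.5 elsewhere (1.51 ± 0.20, adjusted p = 8.88e-06). Bhlha15 (Mist1), which drives granule organisation in acinar cells, was higher in the lacrimal (12.4 units, at least 5.55-fold, adjusted p = 2.07e-05) and parotid glands (6.17 units, at least 2.33-fold, adjusted p = 0.0272). The mean of the other glands includes meibomian pools at 0.0571 to 0.365 units. Parotid pools (3.03 to 10.4) overlapped the submandibular (3.17 to 7.37) and sublingual pools (1.46 to 7.96). Xbp1, the secretory stress-response factor, averaged 72.6 units in the lacrimal gland (1.2 ± 0.16, adjusted p = 2.97e-06). Of the 12, 4 were higher and 0 lower in the submandibular gland (12.3% of all probes called), 3 and 2 in the lacrimal (20.2%), 2 and 0 in the parotid (17.1%), 1 and 1 in the sublingual (11.2%), and 2 and 7 in the meibomian gland (37.9%). The parotid and sublingual counts lie near those shares.

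Between the sexes, Spdef was lower in male submandibular pools, with means of 4.71 in males and 12.9 in females (-1.45 ± 0.33, adjusted p = 0.0163). Xbp1 (-0.95, adjusted p = 0.0468), Sox9 (-1.11, adjusted p = 0.0366) and Sox10 (-0.73, adjusted p = 0.0318) were lower in male lacrimal pools. None of the other regulators was called for sex.

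The genes nearest in function to each enzyme followed their own patterns. Of 10 probes for other lipases and cofactors, 9 passed the filter, and none was called for sex in the lacrimal gland, where Pnliprp1 was. Their 2 sex calls, Abhd5 (47.8 units in males and 12.7 in females, adjusted p = 0.000445) and Mgll (3.25 in males and 1.05 in females, adjusted p = 0.00858), lay in the submandibular gland and were higher in males. In the lacrimal gland Lipg and Ces1d were higher and Abhd5, Lpl and Mgll lower than in the other glands. Of 9 carbohydrate-digesting enzymes kept, Chia1 was called higher in all 3 salivary glands and lower in the meibomian gland, the same calls as Amy1, and Gusb was lower in male lacrimal pools (-0.87 ± 0.23, adjusted p = 0.0271).

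Of 43 probes for other trypsin-fold serine proteases, the family of Ctrb1, 31 passed the filter, and none was called lower in male submandibular pools. Klk1b24 was higher in male submandibular pools, with means of 190 in males and 6.14 in females (4.96 ± 0.46, adjusted p = 8.51e-06), and also in male sublingual pools. Gzmb, a lymphocyte protease, was higher in male lacrimal pools (1.74 ± 0.47, adjusted p = 0.0310) and haptoglobin (Hp) lower (-1.22 ± 0.36, adjusted p = 0.0497). The other proteases were not called for sex.

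Genes whose profile over the 26 arrays was most like each enzyme are given as a description, since the arrays share glands, pools and hybridisation sets. Chia1 was closest to Amy1 (Pearson r = 0.992), followed by Pip5k1b (0.952), Fn3k (0.95), Ncald (0.944), Pdcd4 (0.943) and Abhd1 (0.942). Ncald, a neuronal calcium sensor, averaged 1.28 units in male and 6.50 in female lacrimal pools (-2.34 ± 0.26, limma, adjusted p = 3.84e-06), and Fn3k, which removes sugars from proteins, 0.563 in male and 1.67 in female pools (-1.57 ± 0.27, adjusted p = 0.000746). Pnliprp1 was most like Slc44a4 (0.929), Hoxc4 (0.883), Dmtn (0.879), Aen (0.872), Dedd (0.841) and Dnajc14 (0.832). Hoxc4 averaged 67.9 units in the sublingual and 63.8 in the lacrimal gland, against 0.995 in the parotid and 0.923 in the meibomian gland. None of these 6 passed for sex in the lacrimal gland, where Slc44a4 averaged 2.27 units in males and 5.51 in females (-1.28 ± 0.46, adjusted p = 0.142).

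Ctrb1 was most like Tmigd1 (0.965), an epithelial membrane protein, and then Nktr (0.892), Clec2d (0.884), Gne (0.876), Cldn10 (0.852) and Dnajc2 (0.851). Tmigd1 was lower in males in the same glands as Ctrb1, by -2.79 ± 0.51 in the submandibular (limma, adjusted p = 0.00233) and -1.97 ± 0.51 in the lacrimal gland (adjusted p = 0.0241). Gne, the first enzyme of sialic acid synthesis, was lower in males in both as well (-1.14 ± 0.22, adjusted p = 0.00346, and -1.25 ± 0.22, adjusted p = 0.000821). The other 4 were not called for sex in either gland. Between the enzymes themselves r was 0.419 for Amy1 with Pnliprp1, 0.725 for Amy1 with Ctrb1 and 0.593 for Pnliprp1 with Ctrb1.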

How the data were processed

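Per the labels, RNA came from pools of 5 animals (10 glands), 26 arrays in all. Pools of a group were taken to be separate sets of animals. The authors deposited 1 table of intensity values, on a linear scale and already processed, for 10500 probes; the scanner, background correction and normalization are not given in the sources used here. Array medians differed by 0.0403 on the log2 scale, so no further scaling was applied. Values of exactly -1 (2241, or 0.821%) were taken as a missing code and left out, other values below a floor of 0.0234 (the 1st percentile of positive values) were raised to it, and log2 was taken. Arrays carry no counts, and their number limits the precision.

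The filter on dim probes asked, in 1 or more of the 10 groups, for a value at or above the array's 30th percentile in all pools, which left 8191 probes. Group means were fitted over 26 arrays with limma 3.58.1 in R 4.3.3, and p-values were adjusted over all kept probes by Benjamini-Hochberg. Calls needed an adjusted p under 0.05 and, between glands, a log2 difference of at least 1. A probe below that percentile on every array of a group was called dim there and given as a bound. Of the probes, 8983 had 1 gene symbol, 1 several and 1516 none. The arrays were split into sets by the leading component of deviations from group means (39.1% of their variance, 7555 probes).

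Deviations of same-letter male and female pools of a gland correlated at 0.441 to 0.816, each best with its own letter in all 9 pairs of the 3-pool glands, so the letters pair the samples; this rests on the values, not on the labels. A simulation with sex differences of 3 on the log2 scale in the lacrimal gland gave 48 of 50 calls in each direction. Its values were drawn independently for each array, without the letter pairing or array sets of these data. It therefore checked the code and does not give how often smaller differences, such as those of Ctrb1, would be called. Named genes are the 3 enzymes, members of fixed lists, and the 6 genes most like each enzyme. The enzymes and lists were chosen with earlier results of these data known.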

Additional observations from a re-analysis of the deposited data

Results flagged for a closer look

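The sex difference of Ctrb1 varied with the gland (F = 8.63, limma, adjusted p = 0.0164). It was -2.65 in the submandibular and -1.67 in the lacrimal gland, and -0.06 to -0.49 in the other 3 glands, on the log2 scale as male minus female.

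Every male pool was above every female pool for Pnliprp1 in the meibomian gland (0.20 on the log2 scale, both sexes dim) and below every female pool in the lacrimal gland (-7.13). The difference between these 2 glands was not tested on its own, and the F test over all 5 glands did not pass (adjusted p = 0.146).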

How the results depend on the processing

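The 33 results on Amy1, Pnliprp1 and Ctrb1 by sex, by gland against the other 4 and by F test were recomputed under up to 41 alternatives, and 15 of them were called. No called result reversed, 14 values lost a call, 11 gained one, and 11 uncalled results changed sign. The alternatives were quantile normalization, other filters and floors, the missing code at the floor, the pool letter as a block, own-gland fits, array weights, a trended robust prior, the array set as a block or alone, and single arrays left out. From the gland's own arrays the lacrimal difference of Pnliprp1 (-7.13) had an adjusted p of 0.0554 and that of Ctrb1 (-1.67) of 0.147, and with the letter as a replicate block as well 0.103 and 0.0562. The replicate block over all arrays changed no call of the 3 genes (Pnliprp1 in the lacrimal gland adjusted p = 0.00744, Ctrb1 0.00336). Set 1 alone, with no test, gave sex differences of 2.76 (Pnliprp1) and -3.15 (Ctrb1) in the submandibular, -1.19 (Ctrb1) in the sublingual, and -5.46 (Amy1) and -3.07 (Pnliprp1) in the lacrimal gland, and 6.66 for lacrimal Pnliprp1 against the other glands. Set 2 alone gave -1.46 for Ctrb1 between the sexes in the lacrimal gland, 2.94 for sublingual Amy1 (adjusted p = 0.0646), -1.01 for parotid Ctrb1, 1.07 for lacrimal Ctrb1 and F = 7.94 for Ctrb1 (adjusted p = 0.130). Array weights gave -1.57 for Ctrb1 in the lacrimal gland and F = 6.41 for Pnliprp1 (adjusted p = 0.0464), and a pseudocount of 1 gave 0.69 for sublingual Ctrb1. Without female lacrimal pool B and male lacrimal pool A, chosen after seeing the data, lacrimal sex differences were -2.99 (Amy1) and -6.48 (Pnliprp1), and lacrimal Amy1 fell below the other glands (-1.30, adjusted p = 0.00221). The cause of these changes was not tested.

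With single arrays left out, the ranges were -3.87 to -1.29 for lacrimal Amy1 between the sexes, -1.91 to 0.05 for submandibular Pnliprp1, 0.91 to 1.34 for sublingual Ctrb1, -1.0 to -0.79 for parotid Ctrb1 and 0.75 to 1.06 for lacrimal Ctrb1 against the other glands, and F of 3.17 to 14.2 for Pnliprp1 and 6.90 to 10.2 for Ctrb1. Counts of calls over all probes moved by more than 1.5 times in these cases. For sex they were 592 with the replicate block, 414 with the block in own arrays, 355 with array weights, 117 in set 2 and at least 141 with 1 array left out in the submandibular gland, against 214. In the sublingual gland they were 36 with the block, 97 with the block in own arrays, 0 in own arrays without it, 3 in set 2 and up to 29 with 1 array left out, against 17. In the parotid gland they were 0 to 23 against 2. The counts of 0 by limma came with unadjusted p under 0.05 for 159 probes in sublingual own arrays, and for 79 and, with the block, 273 in parotid own arrays. They were 1107 (block), 96 (own arrays), 121 (own arrays with the block) and 195 (array weights) against 445 in the lacrimal, and 5 (array weights) against 3 in the meibomian gland. For the F test they were 578 (block) and 136 (set 2) against 218. A pseudocount of 1 gave 395, 330, 674, 841 and 1452 calls in submandibular, sublingual, parotid, lacrimal and meibomian glands against the other 4, where the fit used here gave 1006, 914, 1399, 1652 and 3104, and no filter gave 2998 for the lacrimal gland. Signals of meibomian and parotid Pnliprp1 lay below the 30th percentile of their arrays, which limits them to bounds.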
